A study of Mus musculus with 9 samples.

Results

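Granulocyte granule genes encode the proteins that neutrophils and their marrow precursors pack into granules, and in a culture of macrophages their transcripts serve as a measure of residual granulocytic cells. The 10 genes described here, Mpo, Elane, Prtn3, Ctsg, Ms4a3, Ltf, Camp, Ngp, S100a8 and S100a9, were found by gene symbol among the 22376 gene symbols of the deposited tables and were all listed in every library. The libraries came from macrophages grown out of the tibia and femur marrow of wild-type C57Bl/6 mice during 1 week with 10 ng/ml M-CSF, the growth factor that drives marrow cells to become macrophages. M-CSF was washed away, 50000 cells were plated, and wells were kept for 48 h in 3 groups of 3 libraries. Libraries 1 to 3 had an antibody against PD-L1 at 100 µg/ml, libraries 4 to 6 had an isotype-matched antibody of no relevant specificity at the same concentration, and libraries 7 to 9 had no antibody. All groups therefore shared the M-CSF culture and its removal, and the labels name no sort for macrophages. Polyadenylated RNA was sequenced. The labels do not say whether wells came from separate cultures or animals, so the p-values measure the spread between these libraries, which may be technical.

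Neutrophil granules are made in sequence as a marrow precursor matures. Promyelocytes make the primary (azurophil) granules with myeloperoxidase (Mpo) and the serine proteases neutrophil elastase (Elane), proteinase 3 (Prtn3) and cathepsin G (Ctsg). The tetraspan membrane protein gene Ms4a3 is a marker of the precursors shared by neutrophils and monocytes. For brevity it is counted below among the 5 primary granule genes. Myelocytes and metamyelocytes then make the secondary granules with lactoferrin (Ltf), the cathelicidin precursor (Camp) and, in mice, neutrophilic granule protein (Ngp). S100a8 and S100a9 encode the calcium-binding subunits of calprotectin, which fills the cytosol of neutrophils, and monocytes and activated macrophages can also make it.

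Depth ran from 23554320 exonic read equivalents in untreated 7 to 40116467 in untreated 9. Untreated 7 differed from its partners more than any other library did: the chi-square per degree of freedom between libraries of 1 group was 79.2 and 84.2 for pairs with untreated 7, against 7.91 to 36.4 for the other pairs. Lane 4 of the flow cell held PD-L1 antibody 2, and lane 1 held the other libraries, going by the deposited names. The macrophage markers Lyz2, Csf1r, Adgre1 and Cd68 averaged 11400, 2907, 4100 and 780 CPM under the PD-L1 antibody, 13000, 2750, 1690 and 1163 CPM under the isotype antibody and 12840, 2695, 1820 and 1168 CPM in untreated wells. CPM stands for exonic read equivalents counted per 1000000 in a library, after TMM scaling. The 10 granule genes together took 0.0332 to 0.0465% of a library's exonic read equivalents, before scaling, under the PD-L1 antibody, 0.0713 to 0.132% under the isotype antibody and 0.0546 to 0.0724% in untreated wells.

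The transcripts of the granule genes lay on 6 chromosomes, with positions as listed in the files, whose start sites equalled those of RefSeq on GRCm38.p6 for 10 of 10 genes. Ngp (chr9:110419808-110423012, plus strand) lay between Camp (chr9:109847377-109849456, minus strand), 570.4 kb away, and Ltf (chr9:111019292-111042766, plus strand), 596.3 kb away. Prtn3 (chr10:79879667-79883172, plus strand) and Elane (chr10:79886312-79888216, plus strand) were neighbours with 3.1 kb between them, and S100a8 (chr3:90669071-90670034, plus strand) and S100a9 (chr3:90692630-90695721, minus strand) were 22.6 kb apart. Mpo lay at chr11:87793784-87804412 (plus strand), Ctsg at chr14:56099885-56102574 (minus strand) and Ms4a3 at chr19:11629499-11640851 (minus strand). Only Mpo overlapped another RefSeq gene, the long noncoding RNA gene Gm34064, and the counting was not stated to use strand, so reads of the pair cannot be told apart.

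Promoter sequences are shown for the secondary granule genes, which moved together in these libraries, for the neighbouring proteases Elane and Prtn3, and for S100a8, which did not pass the test. Each is the 200 bases before the RefSeq start site on GRCm38.p6, read along the gene from 5′ to 3′: Ltf at chr9:111019092-111019291 (+), Camp at chr9:109849457-109849656 (-), Ngp at chr9:110419608-110419807 (+), Elane at chr10:79886112-79886311 (+), Prtn3 at chr10:79879467-79879666 (+) and S100a8 at chr3:90668871-90669070 (+). Capitals mark matches, on either strand, to the letters TTGCNNAA (bound by C/EBP factors, which drive granule gene transcription), GAGGAA (the core bound by PU.1, the factor encoded by Spi1) and TATAAA, which positions RNA polymerase near many tissue-restricted start sites.
Ltf: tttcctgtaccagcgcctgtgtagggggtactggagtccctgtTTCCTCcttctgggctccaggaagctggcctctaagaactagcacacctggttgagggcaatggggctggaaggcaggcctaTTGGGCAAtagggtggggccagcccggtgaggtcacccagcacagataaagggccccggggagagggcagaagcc
Camp: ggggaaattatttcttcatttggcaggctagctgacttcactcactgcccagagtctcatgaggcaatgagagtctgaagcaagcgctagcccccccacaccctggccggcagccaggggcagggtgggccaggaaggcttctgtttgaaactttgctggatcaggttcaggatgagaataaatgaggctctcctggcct
Ngp: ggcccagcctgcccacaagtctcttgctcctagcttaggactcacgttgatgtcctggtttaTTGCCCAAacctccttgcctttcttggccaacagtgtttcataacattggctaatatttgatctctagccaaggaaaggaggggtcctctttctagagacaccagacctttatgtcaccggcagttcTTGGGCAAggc
Elane: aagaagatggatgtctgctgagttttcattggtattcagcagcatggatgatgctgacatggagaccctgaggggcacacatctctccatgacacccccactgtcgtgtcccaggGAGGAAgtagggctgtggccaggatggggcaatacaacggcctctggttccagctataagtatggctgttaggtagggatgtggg
Prtn3: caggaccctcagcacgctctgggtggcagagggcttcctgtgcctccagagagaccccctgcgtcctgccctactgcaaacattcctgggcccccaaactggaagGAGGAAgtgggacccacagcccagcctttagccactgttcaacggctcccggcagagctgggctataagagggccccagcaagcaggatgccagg
S100a8: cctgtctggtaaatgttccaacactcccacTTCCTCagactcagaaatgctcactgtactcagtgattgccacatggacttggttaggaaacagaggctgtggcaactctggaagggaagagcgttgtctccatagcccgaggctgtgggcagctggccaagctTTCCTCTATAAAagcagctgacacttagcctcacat

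The C/EBP letters were present in 2 of the 10 promoters, against 7.5% of 32851 RefSeq promoters over the same 200 bases. Ngp held them at -138 to -131 and at -11 to -4 from the start site, and Ltf at -75 to -68. The PU.1 letters were present in 4 of 10, against 19.0% of all promoters, at -85 to -80 in Elane, -95 to -90 in Prtn3, -157 to -152 in Ltf, and -170 to -165 and -36 to -31 in S100a8. TATAAA was present in 1 of 10, S100a8, at -30 to -25, next to the second PU.1 match and not overlapping it, against 10.0% of all promoters. Camp, Mpo, Ctsg, Ms4a3 and S100a9 held none of the 3 in this window.

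The 3 secondary granule genes among the 10 fell under the PD-L1 antibody against both the isotype antibody and untreated wells. Lcn2, which encodes another secondary granule protein and is not among the 10, rose in both. Of the 5 primary granule genes 1 fell in the first comparison and 3 in the second, and of the 2 calprotectin genes 0 passed the test in either. Against the isotype antibody, 4 of the 10 genes fell (Ltf, Ngp, Camp and Mpo) and 0 rose by limma's moderated test with Benjamini-Hochberg adjustment over 13728 genes at a threshold of 0.05. Of all genes tested, 18.2% fell and 18.2% rose in this comparison. In 5 of the 10 (these 4 and Elane) all PD-L1 antibody libraries lay below all isotype antibody libraries, as did 26.1% of all genes tested. The median log2 fold change of the 10 genes was -0.62 (-0.34 without isotype 4), against -0.01 over all genes tested. Against untreated wells, 6 of the 10 fell (Ltf, Ngp, Camp, Mpo, Elane and Prtn3) and 0 rose, where 20.5% of all genes fell and 22.0% rose. The same 6 were the genes whose PD-L1 antibody libraries all lay below all untreated libraries, as 24.9% of all genes did, and the median was -0.93 against -0.01. Both comparisons use the same PD-L1 antibody libraries. In bulk RNA, fewer cells of a type and less RNA per cell cannot be told apart.

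Without isotype 4, which held the highest value of 8 of the 10 genes, the same 4 genes fell against the isotype antibody, with adjusted p of 2e-05 to 0.0238. Within lane 1, without PD-L1 antibody 2, 4 of 10 fell against the isotype antibody and 5 of 10 against untreated wells. Of 14068 genes tested, 1935 fell in the first of these. For the second, the share of all genes that fell was 20.5% in the main fit with all libraries. Scaling by total counts, and DESeq2, each gave 7 falls against the isotype antibody. Of all 13728 genes tested, 4148 fell under total counts and 2632 under DESeq2, against 2500 in the main fit. Some marrow progenitor markers also moved with the treatment: 4 of 8 fell against the isotype antibody and 4 of 8 against untreated wells (without untreated 7, 2 rose and 3 fell in the second). Their summed level was 127.5 to 141.3 CPM under the PD-L1 antibody, 234.5 to 254.4 CPM under the isotype antibody and 182.6 to 274.6 CPM in untreated wells, with no marker at 0. Sox4 made up most of that gap, with means of 17.0, 100.3 and 97.0 CPM in the same order. Kit, Cd34, Gata2 and Cdk6 passed neither test. The part of the progenitor markers in the granule result was not tested.

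**Figure D1:**
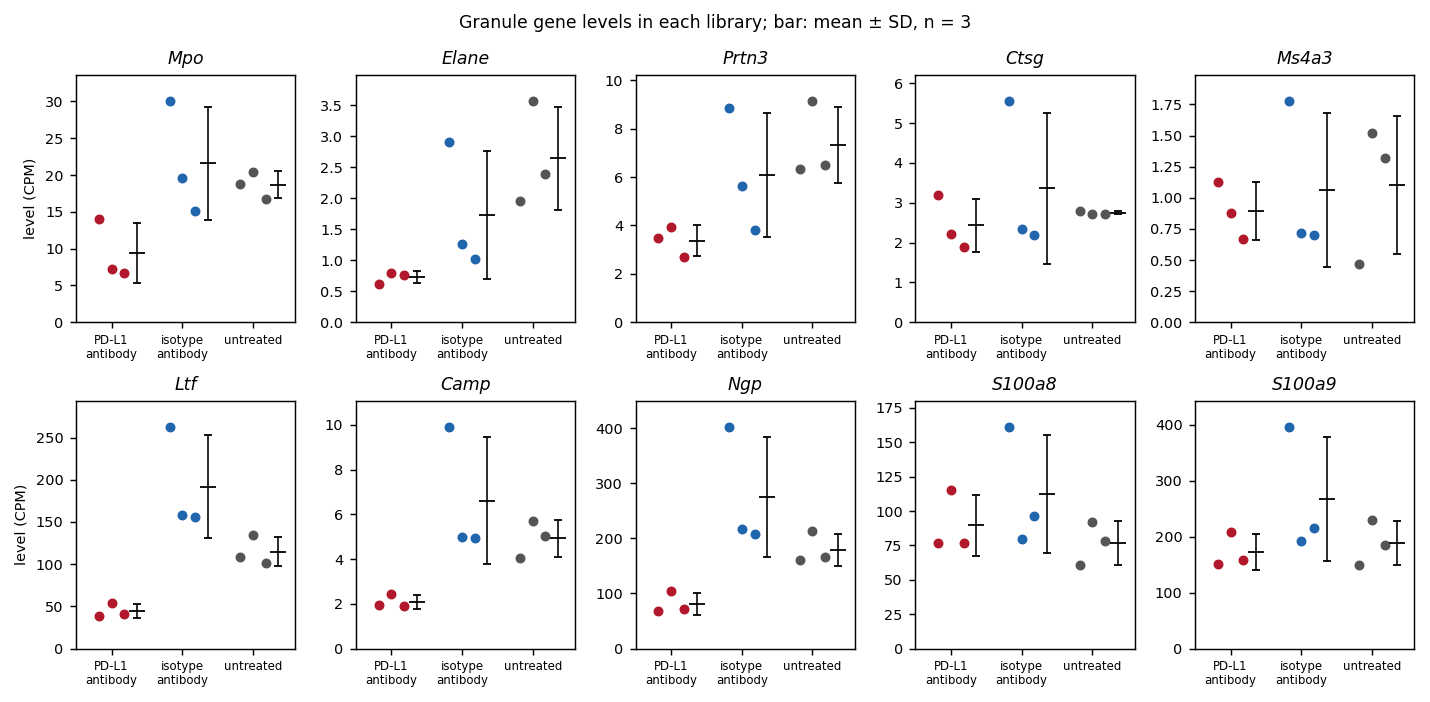
Level of each granule gene in CPM (vertical axis, 1 scale per gene, from 0) in the PD-L1 antibody, isotype antibody and untreated libraries; points are libraries in the order of their numbers and bars are the mean ± SD (n = 3). The PD-L1 antibody points of Ltf, Camp and Ngp lie below all others, while those of S100a8 and S100a9 lie among them.

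The secondary granule genes fell in both comparisons. Ltf, whose protein binds iron, stood at 38.1, 54.5 and 41.1 CPM in the PD-L1 antibody libraries, at 262, 158 and 156 CPM in the isotype antibody libraries and at 109, 135 and 101 CPM in the untreated libraries. The 3 groups did not overlap, with the PD-L1 antibody libraries lowest, untreated wells between and the isotype antibody libraries highest. The PD-L1 antibody mean was 23.2% of the isotype antibody mean, a fall by 2.06 ± 0.20 log2 units (SE; limma adjusted p = 1.68e-05), and 38.7% of the untreated mean, a fall by 1.35 ± 0.20 (adjusted p = 0.000301). Every log2 value was taken after adding 1 CPM, so that fold changes of scarce transcripts come out too small.

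Ngp, a cathelicidin-related protein of mouse granules, stood at 67.9, 104 and 71.1 CPM under the PD-L1 antibody, at 401, 217 and 208 CPM under the isotype antibody and at 159.9, 213 and 165 CPM in untreated wells. Every PD-L1 antibody library lay below the 6 others, and PD-L1 antibody 2 was the highest of its group. The log2 fold change was -1.71 ± 0.24 against the isotype antibody (limma adjusted p = 0.000226), with 29.3% of its mean left, and -1.15 ± 0.24 against untreated wells (adjusted p = 0.00266), with 45.1% left. Camp, the precursor of an antimicrobial peptide, was far less abundant at 1.94, 2.42 and 1.88 CPM under the PD-L1 antibody, 9.89, 4.998 and 4.96 CPM under the isotype antibody and 4.05, 5.70 and 5.05 CPM in untreated wells. Again no PD-L1 antibody library reached any other. Camp fell by 1.25 ± 0.22 on the log2 scale against the isotype antibody (limma adjusted p = 0.00112) and by 0.94 ± 0.22 against untreated wells (adjusted p = 0.00554). The sum of these 3 genes was 107.9 to 160.4 CPM under the PD-L1 antibody, 369 to 673 CPM under the isotype antibody and 271 to 354 CPM in untreated wells.

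Of the 5 primary granule genes, the precursor marker Ms4a3 included, 1 fell against the isotype antibody and 3 fell against untreated wells. The shares over all genes tested were 18.2% and 20.5%, and 1 of 5 is near the first of these. Mpo, which makes hypochlorous acid from hydrogen peroxide, stood at 14.1, 7.28 and 6.71 CPM under the PD-L1 antibody, at 30.1, 19.6 and 15.1 CPM under the isotype antibody and at 18.8, 20.5 and 16.8 CPM in untreated wells. PD-L1 antibody 1 was well above its partners and just under the lowest isotype antibody library, so the groups did not overlap but nearly met. The log2 fold change was -1.14 ± 0.27 against the isotype antibody (limma adjusted p = 0.00623) and -0.99 ± 0.27 against untreated wells (adjusted p = 0.0115). Without PD-L1 antibody 2 or without PD-L1 antibody 3 the second of these missed the threshold (adjusted p = 0.051 and 0.0509).

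Elane had 0.616, 0.798 and 0.761 CPM in the PD-L1 antibody libraries, against 2.91, 1.25 and 1.01 CPM in the isotype antibody libraries and 1.96, 3.56 and 2.40 CPM in the untreated libraries. All PD-L1 antibody values were below all others. Elane fell against untreated wells (log2 fold change -1.05 ± 0.24, limma adjusted p = 0.00463, 27.5% of the untreated mean), while against the isotype antibody it did not pass (-0.60 ± 0.24, adjusted p = 0.0727). That value was -0.31 without isotype 4, and it passed without isotype 6 (adjusted p = 0.0364) or without untreated 7 (adjusted p = 0.0494). With all libraries kept, Elane passed under total-count scaling (limma adjusted p = 0.0385) and with 0.1 CPM added (limma, 0.0489). It also passed with edgeR (adjusted p = 0.039) and DESeq2 (adjusted p = 0.016), and was called in 6 of 18 alternatives. The Elane levels rest on few reads: 17.9 to 22.0 exonic read equivalents per PD-L1 antibody library, against 33.0 to 92.0 per isotype antibody library and 48.9 to 106 per untreated library. Exonic read equivalents came to 29.8 to 32.9% of the reads over the whole Elane span under the PD-L1 antibody, 37.5 to 58.6% under the isotype antibody and 43.3 to 52.6% in untreated wells.

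Prtn3, its chromosomal neighbour, gave 3.47, 3.95 and 2.70 CPM under the PD-L1 antibody, 8.84, 5.62 and 3.81 CPM under the isotype antibody and 6.33, 9.14 and 6.48 CPM in untreated wells. PD-L1 antibody 2 exceeded isotype 6, so the antibody groups overlapped, but no PD-L1 antibody library reached an untreated one. Prtn3 fell against untreated wells (log2 fold change -0.92 ± 0.24, limma adjusted p = 0.00943) and missed the threshold against the isotype antibody (-0.65 ± 0.24, adjusted p = 0.054). Against the isotype antibody it was -0.38 without isotype 4, and it passed without isotype 6 (adjusted p = 0.011) or without untreated 7 (adjusted p = 0.0401). With all libraries kept, Prtn3 passed there under total-count scaling (limma adjusted p = 0.02) and with 0.1 CPM added (limma, 0.0498). It also passed with edgeR (adjusted p = 0.041) and DESeq2 (adjusted p = 0.0167), and was called in 7 of 18 alternatives.

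Ctsg and Ms4a3 passed neither test. Ctsg had 3.19, 2.20 and 1.90 CPM in the PD-L1 antibody libraries, 5.55, 2.34 and 2.20 CPM in the isotype antibody libraries and 2.79, 2.72 and 2.73 CPM in the untreated libraries. The groups overlapped, and isotype 4 was the highest of the 9 libraries. The log2 fold change was -0.28 ± 0.25 against the isotype antibody (limma adjusted p = 0.408) and -0.15 ± 0.25 against untreated wells (adjusted p = 0.668). Ms4a3 had 1.13, 0.880 and 0.667 CPM under the PD-L1 antibody, 1.78, 0.716 and 0.697 CPM under the isotype antibody and 0.471, 1.52 and 1.32 CPM in untreated wells, from 11.8 to 56.2 exonic read equivalents per library. No group stood apart, and untreated 7 was the lowest and isotype 4 the highest. Its log2 fold changes were -0.09 ± 0.24 and -0.12 ± 0.24 (limma adjusted p = 0.799 and 0.712).

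The calprotectin genes passed neither test. S100a8 stood at 76.5, 115 and 76.9 CPM under the PD-L1 antibody, at 161, 79.6 and 96.2 CPM under the isotype antibody and at 60.4, 92.3 and 78.1 CPM in untreated wells. The 3 groups overlapped, and PD-L1 antibody 2 was second only to isotype 4. The log2 fold change was -0.29 ± 0.25 against the isotype antibody (limma adjusted p = 0.405; the log2 fold change was 0.001 without isotype 4) and 0.21 ± 0.25 against untreated wells (adjusted p = 0.527). S100a9 gave 151, 208 and 158 CPM under the PD-L1 antibody, 395, 193 and 215 CPM under the isotype antibody and 150, 229 and 185 CPM in untreated wells. Its groups overlapped as well, with log2 fold changes of -0.57 ± 0.25 (limma adjusted p = 0.0914, and 0.0473 without isotype 5) and -0.12 ± 0.25 (adjusted p = 0.725). Against the isotype antibody, S100a9 was called in 3 of 18 alternatives and S100a8 in 0. Total-count scaling gave 1 fall among the 2 genes there.

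**Figure D2:**
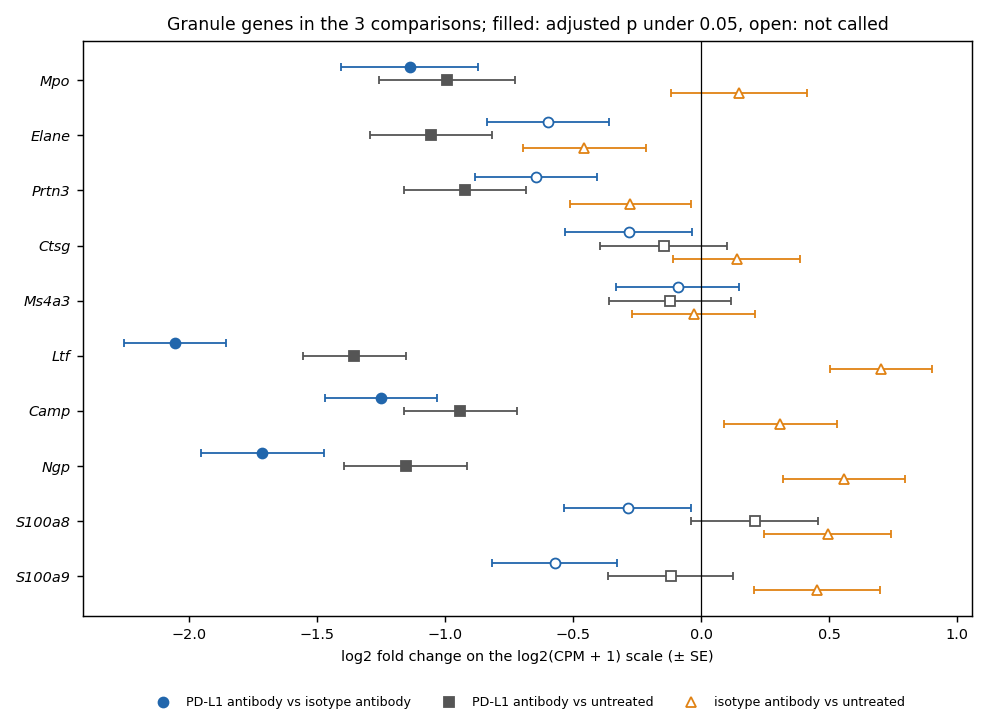
Log2 fold change of each granule gene on the log2(CPM + 1) scale (horizontal axis, ± SE) for the PD-L1 antibody against the isotype antibody (circles), the PD-L1 antibody against untreated wells (squares) and the isotype antibody against untreated wells (triangles), with filled symbols at an adjusted p under 0.05. Ltf, Ngp and Camp reach -2.06, -1.71 and -1.25 against the isotype antibody, and no triangle is filled.

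Between the isotype antibody and untreated wells 0 of the 10 genes were called by limma, where 0.00728% of all genes tested (1 gene) were, while 2 of the 10 had an unadjusted p under 0.05, as did 12.7% of all genes. These 2 were Ltf, with a log2 fold change of 0.70 ± 0.20 (adjusted p = 0.346), and Ngp, with 0.56 ± 0.24 (adjusted p = 0.379). Ltf was the only 1 of the 10 whose isotype antibody libraries all lay above the untreated ones, as 7.61% of all genes did. No member was called in any of the 17 alternatives, edgeR and DESeq2 included. The other log2 fold changes ran from -0.46 in Elane to 0.50 in S100a8.

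A single library accounted for much of the spread under the isotype antibody. Isotype 4 exceeded both of its partners by more than 1.5-fold in 10 of 10 granule genes, as it did in 385 of all genes tested (2.8%). This was not particular to the granule genes. Among the 4 most abundant basophil and mast cell genes, Hdc (12.8 CPM against 6.72 and 5.94), Gata2 (15.4 against 9.93 and 7.17) and Mcpt8 (8.38 against 4.39 and 3.81) did so too. Prss34 did not (47.7 against 34.9 and 20.7). For the granule genes, the level in isotype 4 over the mean of isotype 5 and 6 was 1.67 in Ltf, 1.89 in Ngp, 1.99 in Camp, 1.73 in Mpo, 1.88 in Prtn3, 2.57 in Elane, 2.44 in Ctsg, 2.52 in Ms4a3, 1.83 in S100a8 and 1.94 in S100a9. Elane and Prtn3, which were not highest in isotype 4, were highest in untreated 8. The lowest of the 9 libraries was a PD-L1 antibody library for 7 genes and untreated 7 for Ms4a3, S100a8 and S100a9.

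Ratios within a library compare the granule genes without regard to library scaling. The 8 ratios computed are given as a description and were not tested. Camp stayed in nearly 1 proportion to Ngp, at 0.0286, 0.0233 and 0.0265 under the PD-L1 antibody, 0.0246, 0.0231 and 0.0238 under the isotype antibody and 0.0253, 0.0268 and 0.0306 in untreated wells. The highest of the 9 was 1.32 times the lowest, isotype 4 included. Ltf over Ngp was 0.561, 0.527 and 0.578 under the PD-L1 antibody, 0.653, 0.73 and 0.748 under the isotype antibody and 0.681, 0.634 and 0.612 in untreated wells, and the PD-L1 antibody libraries were the lowest.

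S100a8 over Ngp behaved otherwise. This ratio was 1.13, 1.11 and 1.08 in the PD-L1 antibody libraries, 0.401, 0.368 and 0.462 in the isotype antibody libraries and 0.378, 0.433 and 0.473 in the untreated libraries. The PD-L1 antibody median was 2.77 times that of the isotype antibody and 2.57 times that of untreated wells, and isotype 4 lay among the other 5 libraries. S100a9 over S100a8 was 1.97, 1.81 and 2.06 under the PD-L1 antibody, 2.45, 2.42 and 2.24 under the isotype antibody and 2.48, 2.49 and 2.37 in untreated wells, so S100a9 was lower relative to its partner in all PD-L1 antibody libraries. Among the primary granule genes, Ctsg over Mpo was 0.227, 0.303 and 0.283 under the PD-L1 antibody, 0.185, 0.12 and 0.146 under the isotype antibody and 0.148, 0.133 and 0.163 in untreated wells. The PD-L1 antibody libraries were apart from the others, on the high side. The other 3 ratios with a primary granule gene did not set the PD-L1 antibody libraries apart from both other groups. Mpo over Prtn3 was 4.05, 1.85 and 2.49 under the PD-L1 antibody, 3.40, 3.48 and 3.97 under the isotype antibody and 2.97, 2.24 and 2.59 in untreated wells. Mpo over Ngp was 0.0704 to 0.207 under the PD-L1 antibody, 0.0725 to 0.0903 under the isotype antibody and 0.0962 to 0.118 in untreated wells. Elane over Prtn3 was 0.178 to 0.282 under the PD-L1 antibody, 0.223 to 0.329 under the isotype antibody and 0.309 to 0.39 in untreated wells, lower than in untreated wells but overlapping the isotype antibody.

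**Figure D3:**
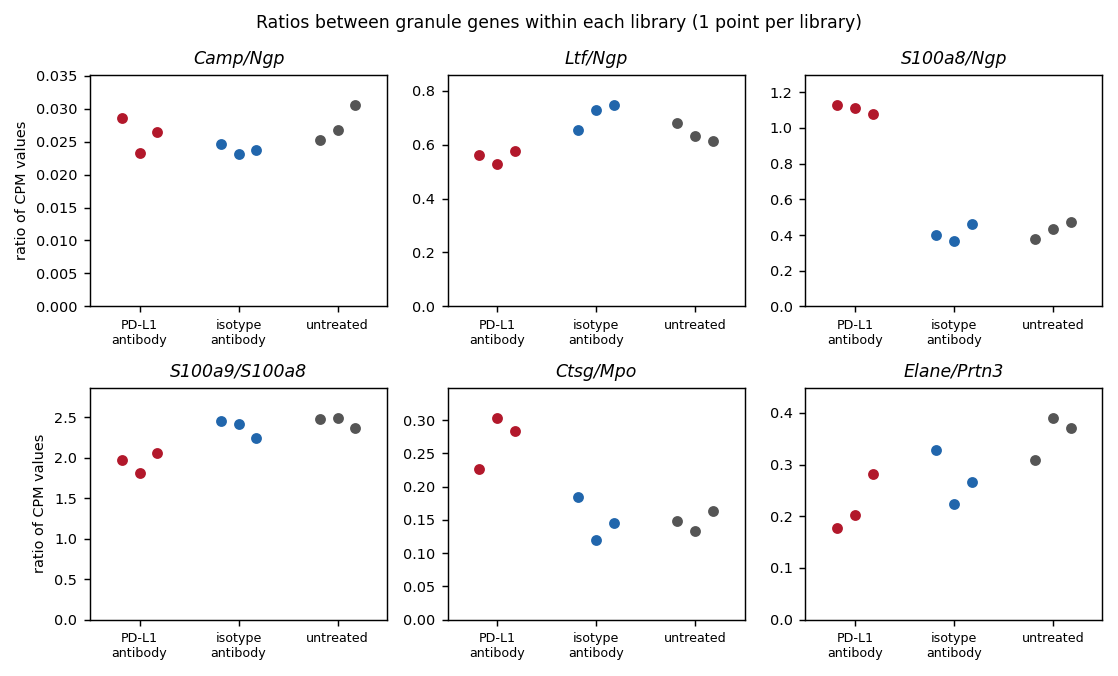
Ratio of the CPM of 1 granule gene to that of another within each library (vertical axis, from 0) in the PD-L1 antibody, isotype antibody and untreated libraries, 1 point per library. Camp/Ngp is level across the groups, and S100a8/Ngp is 1.08 to 1.13 under the PD-L1 antibody against 0.368 to 0.473 elsewhere.

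Per kilobase of exon, the 4 most abundant granule genes kept 1 order in all groups, and only Ngp and Ltf among them passed the test. S100a9 came first, with 329 CPM per kb under the PD-L1 antibody, 511 under the isotype antibody and 359 in untreated wells, which placed it above 98.6, 99.4 and 99% of tested genes. S100a8 followed with 228, 286 and 196 CPM per kb, then Ngp with 69.6, 237 and 155, and Ltf with 16.3, 70.0 and 41.9, in the same order of groups. The next places changed with the group: Mpo, Prtn3 and Camp lay at 3.67, 3.48 and 3.47 CPM per kb under the PD-L1 antibody, at 8.47, 6.28 and 11.04 under the isotype antibody and at 7.34, 7.54 and 8.23 in untreated wells, neighbours that do not differ beyond their spread under the PD-L1 antibody. Ctsg, Ms4a3 and Elane were lowest, at 2.43, 0.884 and 0.788 CPM per kb under the PD-L1 antibody, 3.37, 1.05 and 1.88 under the isotype antibody and 2.75, 1.09 and 2.87 in untreated wells.

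Other neutrophil genes did not move one way. Of 24 listed, 20 were tested, of which 5 rose and 6 fell against the isotype antibody, while 7 rose and 4 fell against untreated wells. The 4 most abundant were Adam8, a surface protease, which rose, Csf3r, the G-CSF receptor, which rose, Lcn2, a siderophore-binding protein of secondary granules, which rose, and Mmp25, a membrane-bound protease, which passed neither test but rose against untreated wells without untreated 7 (adjusted p = 0.0136). Lcn2 had 207, 228 and 244 CPM under the PD-L1 antibody, 91.1, 53.0 and 49.7 CPM under the isotype antibody and 44.5, 49.1 and 40.1 CPM in untreated wells. Its PD-L1 antibody libraries all lay above the others, with log2 fold changes of 1.84 ± 0.19 (limma adjusted p = 2.39e-05) and 2.32 ± 0.19 (adjusted p = 4.27e-06). Csf3r stood at 142, 159.5 and 163 CPM under the PD-L1 antibody, 112, 111 and 105 CPM under the isotype antibody and 109.6, 98.1 and 112 CPM in untreated wells, again with no overlap. Adam8 ran from 630 to 1600 CPM over all libraries. The list was not limited to genes of neutrophils alone: Hp, for 1, is counted among the monocyte markers too. Which cells made these transcripts was not tested.

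Of 6 surface and maturation markers of neutrophils, 5 were tested, of which 1 rose and 2 fell against the isotype antibody and 3 rose and 2 fell against untreated wells. Ly6g, which defines mouse neutrophils in flow cytometry, was at 0.0137 to 0.183 CPM under the PD-L1 antibody, 0.16 to 0.309 CPM under the isotype antibody and 0.0673 to 0.322 CPM in untreated wells, too low to be tested. Cxcr2, the chemokine receptor of mature neutrophils, stood at 7.65, 11.2 and 6.99 CPM under the PD-L1 antibody, at 8.58, 5.4 and 6.90 CPM under the isotype antibody and at 5.13, 4.85 and 4.82 CPM in untreated wells. It rose against untreated wells (log2 fold change 0.67 ± 0.18, limma adjusted p = 0.0119) and overlapped the isotype antibody (0.27 ± 0.18, adjusted p = 0.285). The next genes were chosen after their values were seen. Cd177, a surface protein of neutrophils, had 3.57, 5.04 and 3.75 CPM under the PD-L1 antibody, 15.3, 9.94 and 8.87 CPM under the isotype antibody and 9.32, 10.8 and 7.29 CPM in untreated wells, and fell in both comparisons (limma adjusted p = 0.000643 and 0.00263). Olfm4, Chil1 and Retnlg fell in both as well, with adjusted p of 0.00145 to 0.0115. Retnlg was scarce, at 0 to 0.167 CPM under the PD-L1 antibody, 0.47 to 2.11 CPM under the isotype antibody and 0.946 to 1.41 CPM in untreated wells. Hp (haptoglobin) rose, at 147, 132 and 145.5 CPM under the PD-L1 antibody, 27.8, 22.6 and 20.4 CPM under the isotype antibody and 21.9, 20.7 and 18.6 CPM in untreated wells. Trem1 rose in both too (limma adjusted p = 0.000576 and 6.88e-05). Mmp8 rose against untreated wells (limma adjusted p = 0.00193) and did not pass against the isotype antibody (adjusted p = 0.422).

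**Figure D4:**
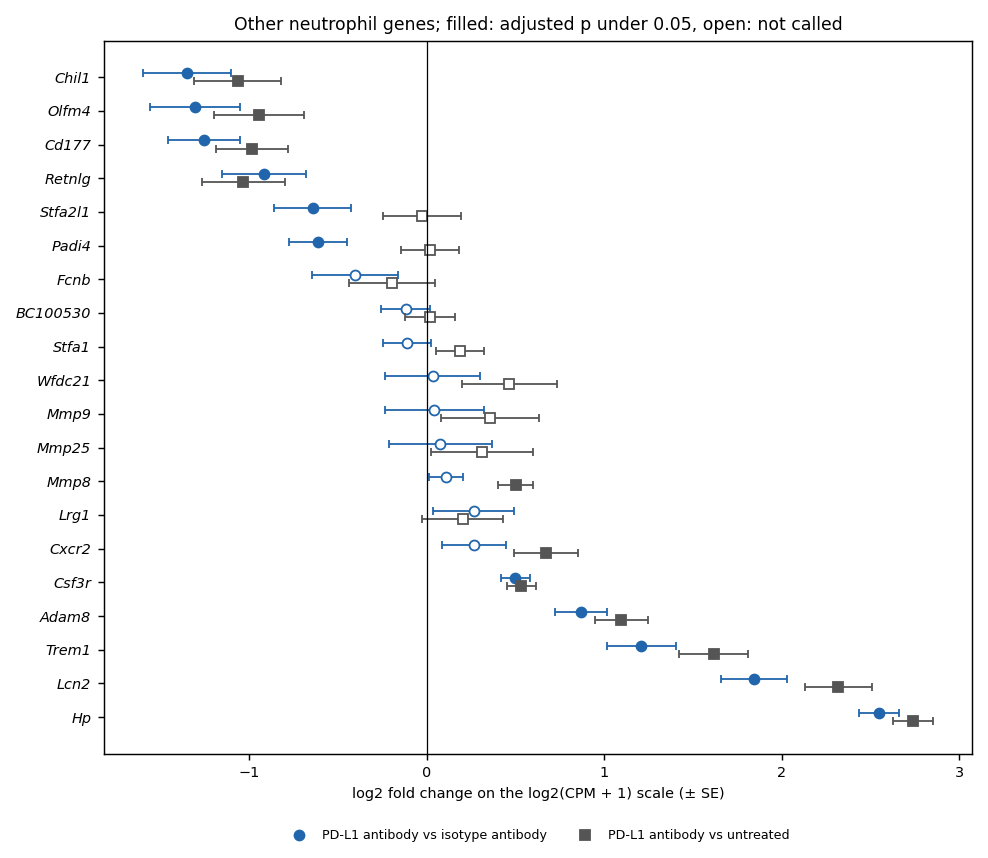
Log2 fold change on the log2(CPM + 1) scale (horizontal axis, ± SE) of the 20 tested genes of the wider neutrophil list, for the PD-L1 antibody against the isotype antibody (circles) and against untreated wells (squares), with filled symbols at an adjusted p under 0.05. Chil1, Olfm4, Cd177 and Retnlg lie left of 0 in both, and Csf3r, Adam8, Trem1, Lcn2 and Hp lie right of 0 in both.

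Factors that direct granule gene transcription moved in both directions. Of 8 granulocyte transcription factors, 2 rose and 3 fell against the isotype antibody, and 1 rose and 3 fell against untreated wells. Spi1 (PU.1) averaged 710 CPM under the PD-L1 antibody, 663 CPM under the isotype antibody and 803 CPM in untreated wells, and passed neither test, as Runx1 did not. Under total-count scaling Spi1 fell against untreated wells (-0.34, limma adjusted p = 0.0375). Cebpa, needed to form granulocyte precursors, averaged 118.6 CPM under the PD-L1 antibody, 465 CPM under the isotype antibody and 752 CPM in untreated wells, and fell in both comparisons (log2 fold change -1.94 ± 0.20 and -2.61 ± 0.20, limma adjusted p = 2.38e-05 and 2.72e-06). Cebpb, the C/EBP factor of emergency granulopoiesis and of activated macrophages, averaged 777 CPM under the PD-L1 antibody, 274 CPM under the isotype antibody and 479 CPM in untreated wells. It rose against the isotype antibody (1.501 ± 0.259, limma adjusted p = 0.000975) and against untreated wells (0.70 ± 0.26, adjusted p = 0.049), and under total-count scaling, or without isotype 4 or untreated 7, no factor rose against untreated wells. Cebpe, which drives secondary granule genes and was chosen after its values were seen, stood at 3.35, 3.78 and 4.07 CPM under the PD-L1 antibody, at 10.0, 6.83 and 5.25 CPM under the isotype antibody and at 5.4, 6.79 and 5.6 CPM in untreated wells. Its PD-L1 antibody libraries lay below all others, while the isotype antibody and untreated libraries overlapped, and it fell in both comparisons (limma adjusted p = 0.0071 and 0.0356).

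Genes that process or store the granule proteases were listed together with protease inhibitors, inhibitors of cysteine proteases included. Of these genes, 5 of 8 tested rose and 2 fell against the isotype antibody, and likewise 5 and 2 against untreated wells. Total-count scaling gave 4 rises and 3 falls in the first and 4 rises and 2 falls in the second. Ctsc, the cathepsin C that cuts the proforms of Elane, Prtn3 and Ctsg to their active forms, averaged 1020 CPM under the PD-L1 antibody, 320 CPM under the isotype antibody and 430 CPM in untreated wells, and rose in both (log2 fold change 1.67 ± 0.20 and 1.29 ± 0.20, limma adjusted p = 7.07e-05 and 0.000401). The cysteine protease inhibitor gene Cstb rose in both (0.38 ± 0.09 and 0.40 ± 0.09), though not under total-count scaling (adjusted p = 0.105 and 0.0501), and Cst3, of the same activity, fell in both (-0.42 ± 0.10 and -0.58 ± 0.10). Serpinb6a, an intracellular inhibitor of cathepsin G, fell to 195.9 CPM under the PD-L1 antibody, against 345 CPM under the isotype antibody and 425 CPM in untreated wells (limma adjusted p = 0.00342 and 0.000496). Slpi, the secretory inhibitor of elastase and cathepsin G and chosen after its values were seen, averaged 23.6 CPM under the PD-L1 antibody, 4.86 CPM under the isotype antibody and 4.20 CPM in untreated wells, with adjusted p of 2.88e-06 and 1.57e-06.

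Relatives and receptors of calprotectin were split. Of 10 such genes 2 rose and 4 fell against the isotype antibody, and 2 rose and 4 fell against untreated wells. S100a4, a neighbour of S100a8 and S100a9 in the S100 cluster, averaged 118.4 CPM under the PD-L1 antibody, 299.7 CPM under the isotype antibody and 235 CPM in untreated wells and fell in both (log2 fold change -1.32 ± 0.16 and -0.97 ± 0.16, limma adjusted p = 6.55e-05 and 0.000491). S100a11 averaged 177 CPM under the PD-L1 antibody, 198 CPM under the isotype antibody and 169.9 CPM in untreated wells and passed neither test. The receptor gene Tlr4 averaged 191, 209 and 189.6 CPM in the same order and passed neither, and Bsg, a surface protein reported in human cells to bind S100A9, rose in both (0.39 ± 0.08 and 0.29 ± 0.08, limma adjusted p = 0.00323 and 0.015). Under total-count scaling the rise of Bsg against untreated wells was not called (adjusted p = 0.15), and Tlr4 fell against the isotype antibody (-0.31, adjusted p = 0.0113).

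The genes most like the granule genes from library to library were found by the correlation of deviations from the group means over the 9 libraries, among 12068 genes with a mean of at least 1 CPM. The values are a description over 9 libraries that share scaling and depth, isotype 4 among them. For the mean of the primary granule genes the 5 closest were Psmb4, 2310001H17Rik, Dusp8, Prg2 and Stfa2l1, with r of 0.992 to 0.934, and 0.79 to 0.971 without isotype 4. For the secondary granule genes they were Chil1, Cnp, Chil3, Rflnb and Hddc3, with r of 0.966 to 0.942, and 0.873 to 0.956 without isotype 4.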

How the data were processed

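Per the labels, 3 libraries of marrow-derived macrophages per group were sequenced in paired 150-base reads. The submitters' processing notes name Partek and STAR, without versions or steps; the genome build is not given in the sources used here. Per the file headers, the deposited tables list, for each RefSeq transcript, a read count, an average coverage (a signal per exonic base), the total exon length and the percent of bases covered. The deposited read counts span introns, so values are exonic read equivalents (average coverage times exon length over 150), with 1 transcript per gene symbol, the one with the highest total.

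The tables held 35131 transcripts and 22376 genes, and edgeR's filterByExpr kept 13728 genes for testing. TMM scaled the libraries (factors 0.919 to 0.932 with the PD-L1 antibody, 1.009 to 1.063 otherwise), and log2(CPM + 1) of all 9 libraries entered limma, with 1 mean per group and the variance trend of limma-trend. Tests were two-sided, with Benjamini-Hochberg adjustment over all genes tested and a threshold of 0.05. The procedure was also run on simulated counts with the same dispersion for all genes and no library that stood apart. These data do hold such libraries, so that run does not give the error rate here. Depth limits scarce transcripts such as Elane and Ms4a3, and amplified reads carry no molecular identifiers. No replicate pair agreed within sampling noise.

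The members, the gene lists, the tests and the alternatives were chosen with earlier results of these data known. From each other list described, the up to 4 genes with the highest mean CPM were named, with Ly6g, Cxcr2 and Csf3r. Alternatives were other scalings, pseudocounts (0.1 and 5), no filter, edgeR, DESeq2, limma-voom, the deposited read counts, a threshold of 0.01, the 2 groups alone, and leaving out each library. Promoters are RefSeq sequences of GRCm38.p6, matched by symbol for 10 of 10 genes. Versions were R 4.3.3, limma 3.58.1, edgeR 4.0.16, DESeq2 1.42.0, Python 3.11.15, pandas 2.3.3, numpy 2.4.6 and matplotlib 3.10.9.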

Additional observations from a re-analysis of the deposited data

How the results depend on the processing

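Falls of Ltf, Ngp, Camp and Mpo against the isotype antibody were called in 18 of 18 alternatives, and falls of Ltf, Ngp, Camp, Elane and Prtn3 against untreated wells in 17 of 17. Mpo against untreated wells was called in 14 of 17: it missed a threshold of 0.01, and 0.05 without PD-L1 antibody 2 or 3. Against the isotype antibody, Prtn3 was called in 7 of 18 alternatives, Elane in 6 and S100a9 in 3, and the granule genes called lower numbered 7 under total counts only and 7 under DESeq2, against 4. Leaving out 1 library gave 4 to 6 there and 5 to 6 against untreated wells. All genes called lower against the isotype antibody numbered 4148 under total counts only and 2632 under DESeq2, against 2500. Total counts only shifted the median log2 fold change of all genes to -0.16 and -0.13 in the PD-L1 antibody comparisons and the share of rises among called genes to 27.4% and 32.2%, against 50% and 51.8%. At 0.01, genes called numbered 3223 and 3824.

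Between the isotype antibody and untreated wells, genes called numbered 2 under total counts only, 0 with edgeR, 13 with DESeq2, 2 with edgeR on the deposited read counts, 0 with limma-voom, 0 at a threshold of 0.01 and 0 with the 2 groups alone, against 1. Leaving out 1 library gave 0 to 2297, the highest without untreated 7, and no granule gene was called in any of these. The cause was not tested.

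Signs that reversed were all of values not called. Log2 fold changes against the isotype antibody, over leaving out 1 library, ran from -0.466 to 0.048 in Ctsg, -0.213 to 0.14 in Ms4a3 and -0.502 to 0.001 in S100a8, the highest without isotype 4 in each, and edgeR on the deposited read counts gave 0.048 in Ms4a3. Against untreated wells they ran from -0.36 to 0.027 in Ms4a3 and -0.274 to 0.032 in S100a9, lowest without untreated 7 and highest without untreated 8, and edgeR on the deposited read counts gave 0.029 in Ms4a3. Between the isotype antibody and untreated wells they ran from -0.108 to 0.364 in Mpo and -0.194 to 0.321 in Ctsg, lowest without isotype 4, and from -0.266 to 0.121 in Ms4a3, with 0.085 without isotype 5, 0.092 without isotype 6 and 0.059 without untreated 9. Leaving out untreated 7 from the comparison of the antibodies, and other settings for the gene lists, were added after seeing the data. No paired analysis was made, because the labels pair no wells across groups and do not say whether wells shared a culture or animal.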

Other observations

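Marker lists of other cells that a marrow culture can hold differed in how they moved. Of 7 monocyte genes, 2 rose and 1 fell against the isotype antibody, and 4 rose and 1 fell against untreated wells. Vcan and Hp rose in both, Ccr2 fell in both, and Ly6c2 rose against untreated wells. The list summed to 669 to 858 CPM under the PD-L1 antibody, 451 to 550 CPM under the isotype antibody and 280 to 435 CPM in untreated wells. Vcan alone averaged 278, 31.9 and 13.8 CPM in that order. Of 9 eosinophil genes tested, 1 rose and 2 fell under the PD-L1 antibody against the isotype antibody, and 1 rose and 1 fell against untreated wells. Ccr3, the eotaxin receptor, rose in both, at 34.2, 53.6 and 26.9 CPM under the PD-L1 antibody, 22.4, 8.30 and 11.2 CPM under the isotype antibody and 12.3, 22.1 and 20.1 CPM in untreated wells (limma adjusted p = 0.00624 and 0.0311). Its call against untreated wells was lost under total-count scaling (adjusted p = 0.0539) and without untreated 7 (adjusted p = 0.0766). Prg2, the major basic protein of eosinophil granules, stood at 17.9, 10.8 and 7.79 CPM under the PD-L1 antibody, at 36.8, 17.9 and 14.5 CPM under the isotype antibody and at 18.2, 22.7 and 17.0 CPM in untreated wells, with isotype 4 again the highest, and passed neither test, but fell against the isotype antibody under total-count scaling (adjusted p = 0.0281) and against untreated wells without isotype 4 (adjusted p = 0.0409). Of 7 basophil and mast cell genes tested 1 rose in each comparison, Hdc, the enzyme that makes histamine, which averaged 24.8 CPM under the PD-L1 antibody, 8.47 CPM under the isotype antibody and 7.54 CPM in untreated wells. Prss34, a basophil protease, averaged 29.0 CPM under the PD-L1 antibody, 34.4 CPM under the isotype antibody and 32.1 CPM in untreated wells and passed neither test.

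Among marrow progenitor genes, Sox4 averaged 17.0 CPM under the PD-L1 antibody, 100.3 CPM under the isotype antibody and 97.0 CPM in untreated wells and fell in both comparisons (log2 fold change -2.48 ± 0.15 and -2.43 ± 0.15, limma adjusted p = 4.64e-07 and 5.67e-07). Flt3 also fell in both, though against untreated wells not without isotype 4 (adjusted p = 0.0568) or untreated 7 (adjusted p = 0.0906), and Cdk6 and Kit passed neither test. Without untreated 7, Cdk6 rose against untreated wells (adjusted p = 0.0488) and Kit fell against the isotype antibody (adjusted p = 0.0437), as Kit did under total-count scaling (adjusted p = 0.0432). Of 5 erythroid genes tested 3 fell against the isotype antibody and 4 against untreated wells, with summed levels of 2.25 to 4.10 CPM under the PD-L1 antibody, 7.58 to 15.8 CPM under the isotype antibody and 13.2 to 19.1 CPM in untreated wells. These counts and sums hold both Hba-a1 and Hba-a2, which had nearly equal values in every library (means of 1.29, 4.42 and 5.94 CPM for each). Their falls are therefore not separate results. B cell genes summed to 4.91 to 6.05 CPM under the PD-L1 antibody, 5.36 to 7.22 CPM under the isotype antibody and 5.81 to 10.9 CPM in untreated wells, with 0 of 3 tested called in either comparison by limma (0 and 0 at an unadjusted p under 0.05), although Cd79a fell against untreated wells without untreated 7 (adjusted p = 0.0424). Of 4 T and NK cell genes tested, 1 fell against the isotype antibody and 2 against untreated wells, and the list summed to at most 3.71 CPM in any library.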
